A study of Bos taurus with 30 samples.

Results

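Prednisolone-treated cattle were compared with control cattle at the first of the sampling times, T1, over the genes that could be named on the array. The rule took every array whose time label is T1, which gave 15 of the 30 arrays of the series. They held lymphocyte RNA of 8 animals (Bos taurus) labelled PREDNISOLONE, numbered 25 to 32, and of 7 animals labelled CONTROL, numbered 17, 18 and 20 to 24. The same 15 animals gave the arrays of a later label, T2. Prednisolone was given by mouth at 30 mg a day per animal over 35 days, and the labels do not say at which point of the dosing T1 or T2 fell. Samples are described as taken at the slaughterhouse, and whether this holds for both T1 and T2 of the same animals was not resolved. The labels give no age, sex, breed or batch, and mark each array as 1 animal with no pooling. Of 3269 genes named on the array, 2402 had enough signal to be tested, 198 of them known only by a locus symbol. Each array held a value for 35330 to 38801 features at T1, and the number of arrays limits the precision.

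Prednisolone is a synthetic glucocorticoid. It enters cells and binds the glucocorticoid receptor, NR3C1, which is held ready by heat shock chaperones and then moves to the nucleus. There the receptor raises some genes and lowers many inflammatory ones, in part by opposing NF-kB and AP-1. In blood, glucocorticoids are known for moving lymphocytes out of the circulation, for raising neutrophil numbers and for promoting an anti-inflammatory state of monocytes.

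The lymphocyte label was checked against cell markers, all given as log2 intensity. CD3E, part of the T cell receptor complex, lay at 14.32 to 14.88 in prednisolone animals and at 12.46 to 14.79 in control animals, where animals 22 and 24 were low. CD3D, CD2 and CD8A of T cells and CD79A of B cells also lay far above the limit for dim genes, which was 3.76. CD4, MS4A1 and LYZ were not analysed here. RNA of other blood cells was present: CD14, the lipopolysaccharide co-receptor of monocytes, lay at 13.33 to 15.61 in prednisolone animals and at 12.06 to 13.40 in control animals. In bulk RNA of this kind, fewer cells of a type and less RNA per cell cannot be told apart.

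Before any gene is described, the animals must be. On the first principal component of the T1 arrays, which held 24.9% of the variance over 2181 genes, prednisolone animals 32 and 28 stood apart at 23.42 and 17.17. The other 6 prednisolone animals lay at -5.36 to 7.86, and the 7 control animals at -11.69 to -0.22. Genes with the strongest weight on this component included the chemokines CCL8 and CXCL5 and the prostaglandin synthase PTGS2. The median within-group SD of a gene was 0.252 log2 units in prednisolone animals, 0.222 in the 6 that remain without animals 28 and 32, and 0.257 in control animals. Values without animals 28 and 32 are given beside the genes and lists that they moved most.

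**Figure D1:**
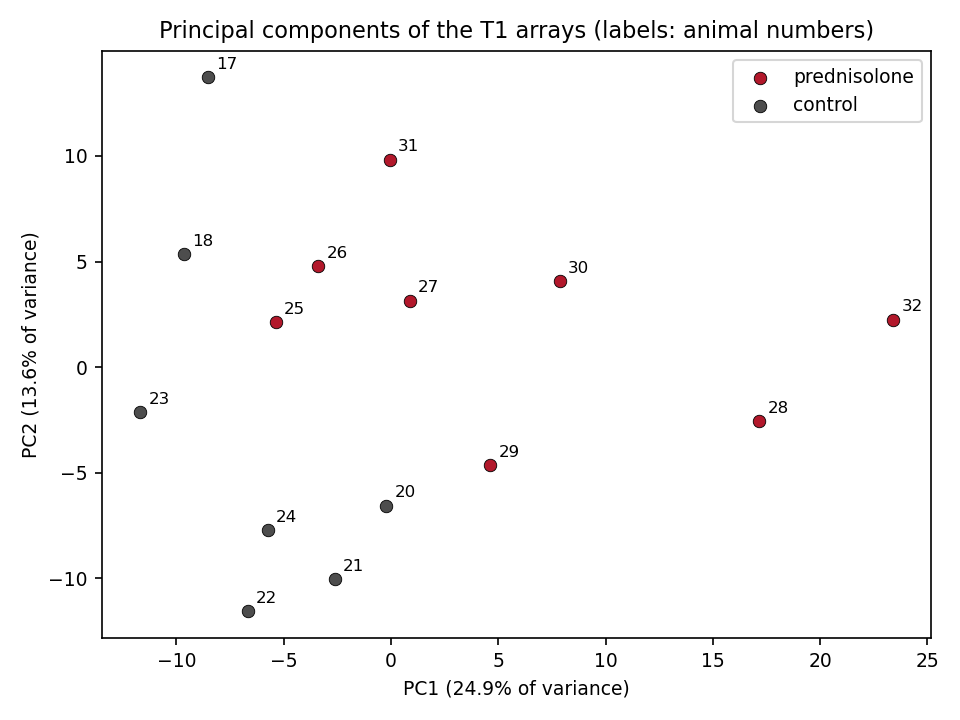
First and second principal components of the 15 T1 arrays over 2181 genes, 1 point per animal, with prednisolone and control animals in separate colours and animal numbers beside the points. Animals 28 and 32 lie far to the right on the first component, at 17.17 and 23.42, and no other animal passes 7.86.

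At T1, 3 genes rose and 5 fell in prednisolone animals (limma, Benjamini-Hochberg adjusted p under 0.05), which is 0.333% of the 2402 genes tested. The risers were GNAT2, RPL27 and ATP5F1D, and the genes that fell were IL15, PGA5, ARNT, UBE2D1 and AMY2B. At an unadjusted p under 0.05 stood 522 genes, 21.7% of those tested: 324 higher (13.5%) and 198 lower (8.24%). Of all genes tested, 33 (1.37%) differed by more than 1 log2 unit in either direction. The adjusted p-values were tightly packed above the threshold, with 43 genes under 0.06 and 162 under 0.10. All 8 calls depended on the animals: none remained without prednisolone animal 28, 31 or 32 or control animal 21, while 109 genes were called without control animal 17, 58 without prednisolone animal 26, 34 without prednisolone animal 25 and 20 without control animal 20. Without control animal 18 the count was 2, and without control animal 22 or 23 or prednisolone animal 30 it was 1. With both animals 28 and 32 left out no gene passed, and 345 genes (14.4%) had an unadjusted p under 0.05. A limma fit over the 30 arrays of both samplings, with the animal as a replicate block, called 232 genes at T1 (9.66%), 150 higher (6.24%) and 82 lower (3.41%), among them all 8. That fit takes the spread of a gene from the T1 and T2 arrays together. Without the block the same 30 arrays gave 246 genes.

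GNAT2, a G protein subunit known from cone photoreceptors, was the clearest of the genes that rose. Its log2 intensity ran from 4.42 through a median of 5.06 to 5.72 in the 7 prednisolone animals with a value, and from 2.85 through 3.83 to 3.98 in control animals. The groups did not overlap, and the difference was 1.43 (SE 0.219, adjusted p = 0.0264). It is a dim gene: all 7 control animals lay under a log2 intensity of 4, and with intensities raised to that floor of 16 the difference was 0.99 and the adjusted p 0.0521. With the mean of all its features the difference was 1.22 and the adjusted p 0.0637, so that it did not pass under either setting.

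RPL27, a protein of the large ribosomal subunit, had a median log2 intensity of 10.34 in prednisolone animals, with a lowest value of 9.42 and a highest of 10.59. In control animals the lowest, median and highest were 8.92, 9.25 and 9.55. Only prednisolone animal 26 lay within the control range. The mean was 10.20 ± 0.37 in prednisolone animals (SD, n = 8) and 9.28 ± 0.22 in control animals (SD, n = 7), a difference of 0.92 (SE 0.156, adjusted p = 0.0297). ATP5F1D, the delta subunit of the mitochondrial ATP synthase, lay at 11.99 to 12.51 (median 12.24) in prednisolone animals and at 11.35 to 12.01 (median 11.60) in control animals. For that gene 7 of the 8 prednisolone animals lay above every control animal, and the difference was 0.59 (SE 0.116, adjusted p = 0.0409).

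A cytokine on which natural killer cells and memory T cells depend, IL15, fell. Its log2 intensity ran from 3.68 through 4.22 to 4.87 in the 7 prednisolone animals with a value, and from 4.93 through 5.55 to 5.96 in control animals. No prednisolone animal reached the lowest control animal. The difference was -1.11 (SE 0.210, adjusted p = 0.0409), and it was -1.01 without animals 28 and 32.

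ARNT pairs with hypoxia-inducible factors and with the aryl hydrocarbon receptor. It fell by 0.75 log2 units (SE 0.146, adjusted p = 0.0409) and ran from 7.68 through 8.19 to 8.55 in prednisolone animals and from 8.47 through 8.89 to 9.47 in control animals, so that 7 of 8 prednisolone animals lay below every control animal. UBE2D1, an enzyme that passes ubiquitin on to target proteins, had 6.80, 7.18 and 7.61 as its lowest, median and highest in prednisolone animals, against 7.51, 8.01 and 8.16 in control animals. Here 1 prednisolone animal overlapped the controls, and the difference was -0.69 (SE 0.140, adjusted p = 0.0478).

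The other genes that fell encode digestive enzymes. PGA5, a pepsinogen, lay at 6.27 to 7.23 (median 6.88) in prednisolone animals and at 7.07 to 8.31 (median 7.75) in control animals, and fell by 0.96 (SE 0.177, adjusted p = 0.0409). AMY2B, an amylase, lay at 7.03 to 7.48 (median 7.20) in prednisolone animals and at 7.45 to 7.80 (median 7.70) in control animals, and fell by 0.44 (SE 0.087, adjusted p = 0.0409). Both belong to families of similar genes, and which copies their probes read was not tested. Without animals 28 and 32 these 8 genes had the same direction, IL15 as given above and the others with differences of 1.34 for GNAT2, 0.87 for RPL27, 0.54 for ATP5F1D, -0.93 for PGA5, -0.64 for ARNT, -0.62 for UBE2D1 and -0.43 for AMY2B, at adjusted p of 0.1011 to 0.1506, and none passed.

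**Figure D2:**
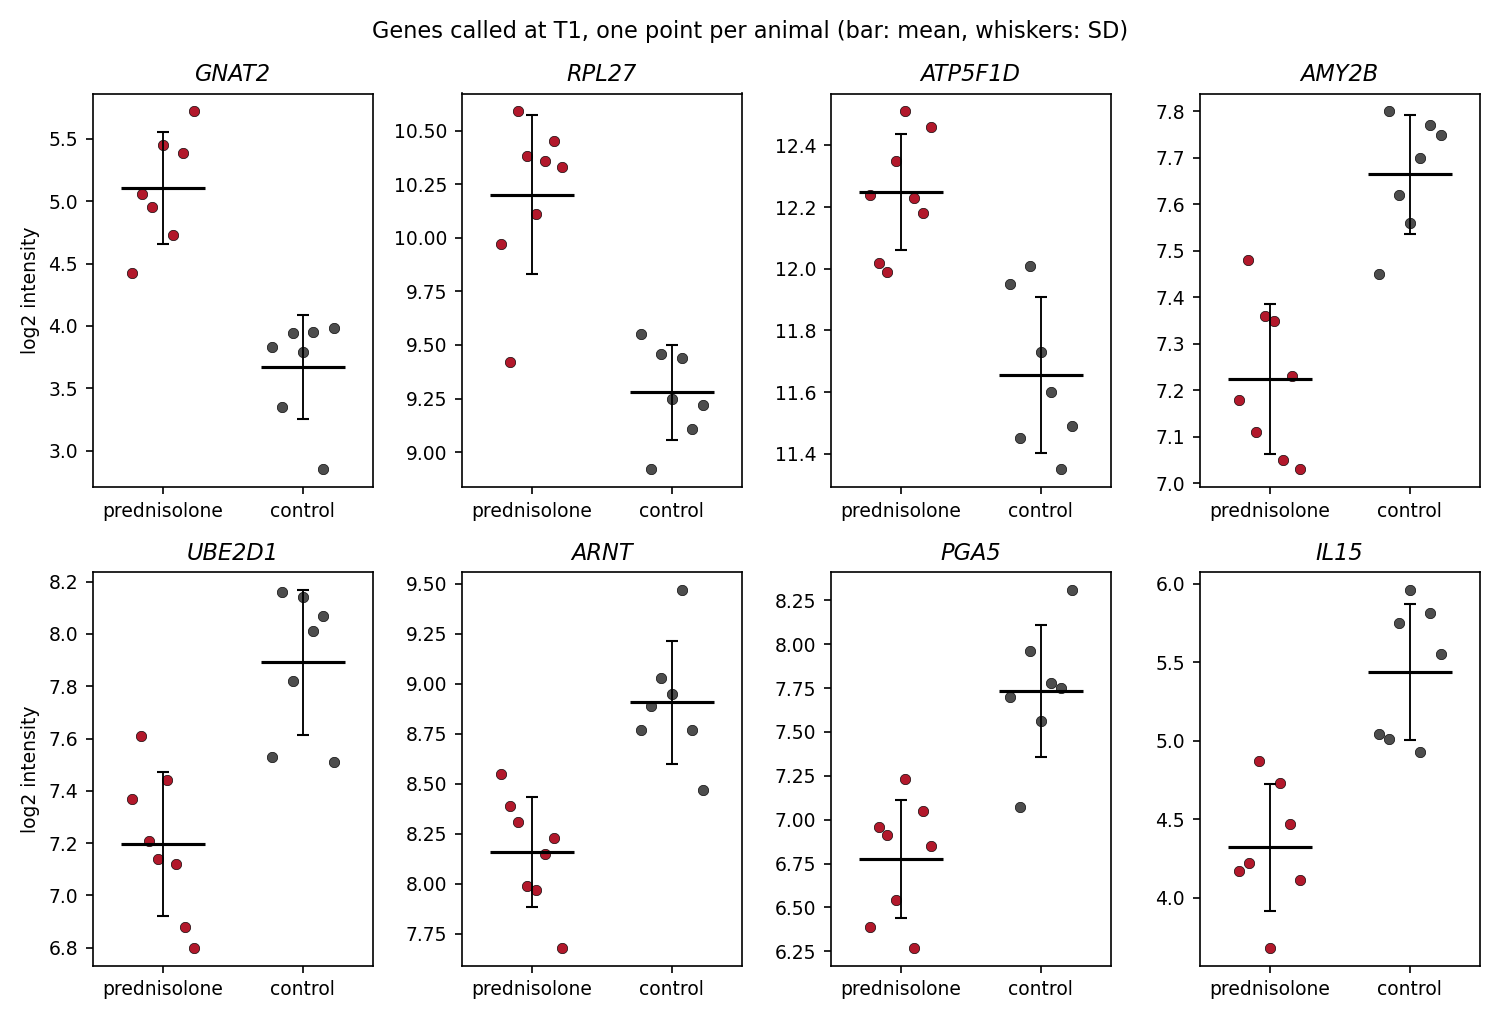
Log2 intensity of the 8 genes that passed at T1, 1 point per animal, prednisolone on the left and control on the right of each panel, with the mean as a bar and the SD as whiskers. GNAT2 and IL15 show no overlap between groups, and in the other panels 7 of 8 prednisolone animals lie beyond every control animal.

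The groups did not overlap for 7 genes, 0.291% of those tested: prednisolone animals were higher for 6 (0.25%) and lower for 1 (0.0416%). Besides GNAT2 and IL15 these were COX7C, a subunit of cytochrome c oxidase, at 0.57 (SE 0.140, adjusted p = 0.0584), and the locus genes LOC513690 at 0.57 and LOC614614 at 0.34. LOC513690 had a value in 5 of 7 control animals, and with quantile scaling over all features it differed by 0.08 and LOC614614 by 0.17. DELE1, a mitochondrial stress signalling protein, at 0.26, and ATP6V1F, a proton pump subunit, at 0.24, were named after their values were seen.

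The next genes by p-value missed the threshold narrowly. SPP1, which encodes osteopontin, had the largest difference among the genes tested. It ran from 5.12 through a median of 9.01 to 12.65 in prednisolone animals and from 3.1 through 4.14 to 6.23 in control animals. Of the 8 prednisolone animals 7 lay above every control animal, and only animal 25 did not. The mean was 8.64 ± 2.41 in prednisolone animals (SD, n = 8) and 4.30 ± 1.07 in control animals (SD, n = 7), a difference of 4.34 (SE 0.906, adjusted p = 0.0556, and 0.0077 with the animal as a block). Without animals 28 and 32 it was 3.46.

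CD14 followed, with 13.33, 13.74 and 15.61 as the lowest, median and highest log2 intensity in prednisolone animals and 12.06, 12.65 and 13.40 in control animals. Animals 28 and 32 were the highest, at 14.91 and 15.61, and the other prednisolone animals lay close together at 13.33 to 13.83. The difference was 1.44 (SE 0.319, adjusted p = 0.0556, and 0.0144 with the block), and 1.04 without animals 28 and 32. PPARG, a nuclear receptor for lipids found in macrophages, lay at 9.08 to 11.75 (median 9.91) in prednisolone animals and at 7.98 to 9.12 (median 8.48) in control animals. It differed by 1.52 (SE 0.339, adjusted p = 0.0556), and by 1.13 without those animals. IL1RN, the soluble antagonist of the interleukin 1 receptor, lay at 13.65 to 16.25 (median 14.39) in prednisolone animals and at 12.88 to 13.89 (median 13.26) in control animals. Its difference was 1.43 (SE 0.361, adjusted p = 0.0603), against 0.97 without animals 28 and 32. PPARG and IL1RN passed with the animal as a block, at adjusted p of 0.0067 and 0.0098.

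For 4 further named genes the difference rested more on single animals, and none passed in the T1 arrays alone. CXCL5, a chemokine for neutrophils, lay at 10.21 to 15.27 in prednisolone animals and at 9.30 to 10.60 in control animals. It differed by 1.89 (adjusted p = 0.1077), and by 1.06 without animals 28 and 32. CCL2, which draws monocytes, lay at 7.97 to 14.70 in prednisolone animals and at 7.28 to 10.46 in control animals. Its difference was 2.80 (adjusted p = 0.1130), against 1.73 without them. TIMP1, an inhibitor of matrix metalloproteinases, reached 15.26 and 15.22 in animals 28 and 32 and 12.79 to 13.37 in the other prednisolone animals, with control animals at 12.15 to 13.19. It differed by 0.98 (adjusted p = 0.1562, and 0.0400 with the block), and by 0.42 without the pair. MT2A, a metallothionein known to be induced by glucocorticoids, lay at 6.80 to 12.85 in prednisolone animals, with animal 28 the highest, and at 6.71 to 8.29 in control animals, a difference of 1.71 (adjusted p = 0.1568, and 0.0467 with the block). Without animals 28 and 32 it was 1.08.

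**Figure D3:**
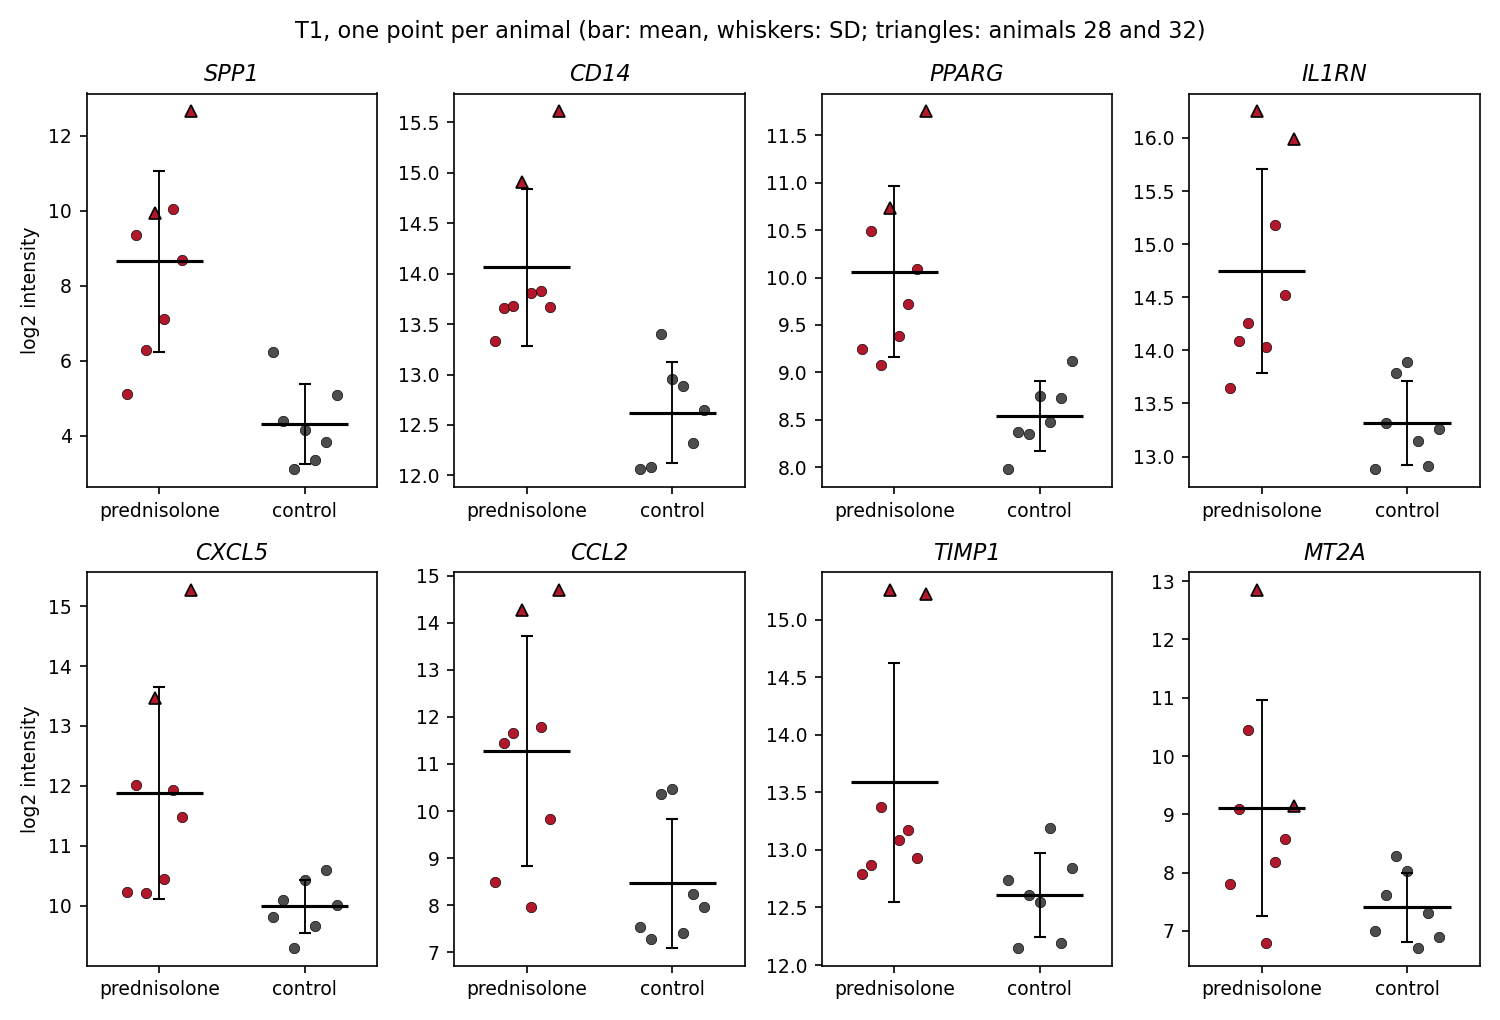
Log2 intensity of SPP1, CD14, PPARG, IL1RN, CXCL5, CCL2, TIMP1 and MT2A at T1, 1 point per animal, prednisolone on the left and control on the right, with mean bars and SD whiskers. Triangles mark prednisolone animals 28 and 32, which hold the highest values of CD14, PPARG, IL1RN, CXCL5, CCL2 and TIMP1, while the remaining prednisolone animals lie nearer to the control animals.

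The whole monocyte and macrophage marker list is given beside these genes. Of 13 members tested, 2 were higher and none lower at an unadjusted p under 0.05, beside 13.5% and 8.24% of all genes. They were CD14 and the scavenger receptor MSR1 at 0.87, which was 0.55 with the mean of all its features. The list's median difference was 0.195, beside 0.032 over all genes tested. That median was 0.071 without animals 28 and 32, with 2 members higher and 1 lower. The list's summed intensity ranged from 273803 to 481391 in prednisolone animals and from 223291 to 414713 in control animals, so the ranges overlapped widely. The complement gene C1QA stood at -0.56, and the signalling adaptors TYROBP and FCER1G at 0.30 each. Of 11 neutrophil markers tested, 2 were higher at an unadjusted p under 0.05, beside 13.5% of all genes. They were the chemokine receptor CXCR1 at 0.68 and the defensin LAP at 1.59, with LAP valued in 5 animals of each group. None of the 11, with animals 28 and 32 left out, had an unadjusted p under 0.05, CXCR1 differed by 0.40 and LAP by 0.60. LAP differed by 0.53 with a floor of 16 and by 0.51 with the mean of all its features. Their summed intensity was 113805 to 240163 in prednisolone animals and 81443 to 196983 in control animals. The part of these cells in the differences was not tested.

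**Figure D4:**
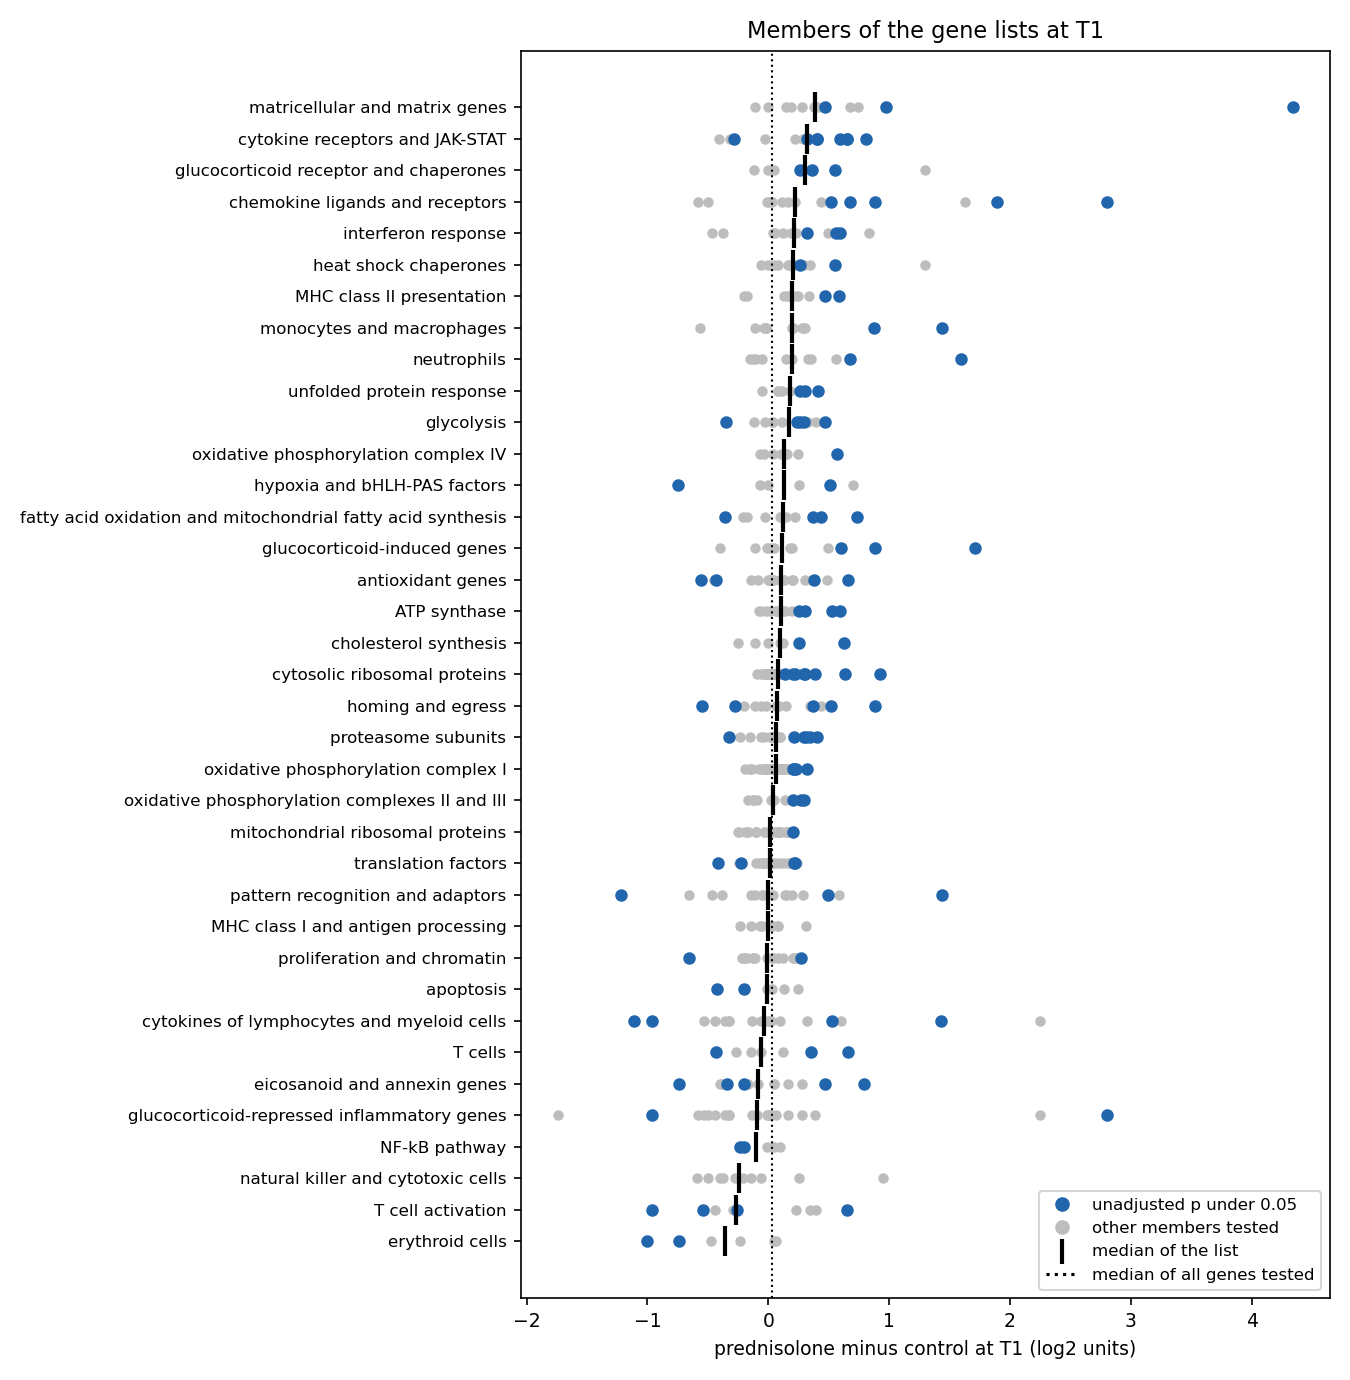
Difference between prednisolone and control animals at T1, in log2 units, for the tested members of each gene list with at least 6 of them, 1 row per list and 1 point per gene. Blue points had an unadjusted p under 0.05, bars mark list medians and the dotted line the median of all genes tested, 0.032. The medians lie on both sides of that line, and the erythroid list lies lowest at -0.356.

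The known targets of the glucocorticoid receptor were counted as a list. Of 12 glucocorticoid-induced genes tested, 3 were higher and none lower at an unadjusted p under 0.05, beside 13.5% and 8.24% of all genes. None was called. These 3 were CXCR4, CEBPD and MT2A. The list's median difference was 0.113, beside 0.032 over all genes, and it was -0.005 without animals 28 and 32. CXCR4, a chemokine receptor that retains lymphocytes in bone marrow, lay at 13.83 to 14.92 (median 14.50) in prednisolone animals and at 12.95 to 14.37 (median 13.46) in control animals. The difference was 0.88 (SE 0.213, adjusted p = 0.0556, and 0.0150 with the block). With the mean of all its features the CXCR4 difference was 1.27, at an adjusted p of 0.4433. CEBPD, a transcription factor, differed by 0.60 (SE 0.203, adjusted p = 0.1119), and by 0.36 without those animals. NFKBIA, the inhibitor that holds NF-kB in the cytoplasm, differed by 0.04, a value whose sign turned to -0.04 with quantile scaling over all features. ZBTB16, a glucocorticoid target in many tissues, differed by 0.19, and by -0.13 with that scaling. ANXA1, which encodes an anti-inflammatory annexin, differed by -0.40 (adjusted p = 0.4886). TSC22D3, FKBP5, PER1, DUSP1 and KLF9 were not analysed here.

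NR3C1 itself lay at 11.94 to 12.61 (median 12.08) in prednisolone animals and at 11.68 to 12.57 (median 12.20) in control animals, a difference of -0.12 (SE 0.128, adjusted p = 0.6233). Of the receptor and 7 further chaperone and immunophilin genes, 3 were higher at an unadjusted p under 0.05, beside 13.5% of all genes. They were FKBP1A at 0.36, HSP90AA1 at 0.55 and HSPA8 at 0.26. For HSP90AA1 the highest animals were 30 and 32, at 16.16 and 15.36, against 14.52 to 14.86 in the other prednisolone animals and 14.06 to 14.77 in control animals.

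Genes that glucocorticoids are known to repress showed both directions. Of 21 tested, 1 was higher and 1 lower at an unadjusted p under 0.05, beside 13.5% and 8.24% of all genes. They were CCL2 at 2.80 and IFNG at -0.97, and the list's median was -0.090. With animals 28 and 32 left out the counts were 1 higher and 3 lower, and the median was -0.518. IFNG, the main cytokine of type 1 immunity, lay at 6.0 to 7.74 (median 6.66) in prednisolone animals and at 6.82 to 8.81 (median 7.79) in control animals. All prednisolone animals but animal 29 lay below every control animal, and the adjusted p was 0.0927. The list's other wide differences, IL6 at 2.24 (adjusted p = 0.2856) and the endothelial adhesion molecule VCAM1 at -1.74 (adjusted p = 0.2394), did not pass either, and both were named after their values were seen. TNF stood at -0.32 and IL1B at -0.33. Among 4 immediate early genes none had an unadjusted p under 0.05, with FOS at 0.13, EGR1 at -0.25, JUN at -0.09 and ZFP36 at 0.02.

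Several receptors and signalling proteins of cytokines stood higher in prednisolone animals. Of 13 tested, 7 were higher and 1 lower at an unadjusted p under 0.05, beside 13.5% and 8.24% of all genes, and the median difference was 0.321. None was called in the T1 arrays alone, and 5 were called higher with the animal as a block. IL2RG, the chain shared by the receptors of IL-2, IL-7 and IL-15, lay at 12.49 to 13.37 (median 13.10) in prednisolone animals and at 12.18 to 12.85 (median 12.19) in control animals, a difference of 0.60 (SE 0.154, adjusted p = 0.0603). IL2RA, the high-affinity IL-2 receptor chain, differed by 0.65, IL12RB2 of the IL-12 receptor by 0.81 and IL4R by 0.40. The transcription factors STAT5B and STAT3, which cytokine receptors activate, differed by 0.65 and 0.41. STAT5A and SOCS2 of the same list stood lower, at -0.32 and -0.41, neither at an unadjusted p under 0.05. STAT5B was at 0.43 without animals 28 and 32, and STAT3 at 0.23 with quantile scaling over all features. TNFRSF1B, a receptor of tumour necrosis factor, was the 1 counted as lower, at -0.29. The counts were 4 higher and 2 lower without animals 28 and 32, and the median 0.164.

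T cell genes differed in both directions. Of 10 T cell activation genes, 1 was higher and 3 lower at an unadjusted p under 0.05, beside 13.5% and 8.24% of all genes, and the median was -0.264. These counts were 1 and 2 without animals 28 and 32. The lower ones were IFNG, PTPRC, which encodes the phosphatase CD45, at -0.26, and CD40LG, which T cells use to help B cells, at -0.54. Of 7 T cell markers, 2 were higher and 1 lower at an unadjusted p under 0.05, beside 13.5% and 8.24% of all genes. The median was -0.06, beside 0.032 over all genes. CD3E differed by 0.66, CD2 by 0.35 and CD3D by 0.13. CD8A, of cytotoxic T cells, differed by -0.43 (adjusted p = 0.1866), CD6 by -0.27, CD3G by -0.14 and CD247 by -0.06. The summed intensity of these 7 markers was 55789 to 79379 in prednisolone animals and 40528 to 83734 in control animals. Of 10 natural killer and cytotoxic markers none had an unadjusted p under 0.05, and 8 stood lower, beside 1089 of all 2402 genes. Their median was -0.246, beside 0.032 over all genes, and -0.137 without animals 28 and 32. KLRD1, a natural killer receptor chain, stood at -0.59, and KIR3DL1, a receptor for MHC class I, at 0.95. Of the B and plasma cell markers 4 were tested and none passed at an unadjusted p under 0.05, with CD79A at 0.22.

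Among genes of homing and egress, 3 of 14 were higher and 2 lower at an unadjusted p under 0.05, beside 13.5% and 8.24% of all genes. With animals 28 and 32 left out they were 2 and 1. S1PR1, the receptor that lets lymphocytes leave lymph nodes, differed by 0.37, and CXCR5, which guides B cells to follicles, by 0.52. The integrin chain ITGB1 differed by -0.27 and the adhesion molecule PECAM1 by -0.55. Of 16 pattern recognition genes, 2 were higher, CD14 and the Toll-like receptor adaptor TIRAP at 0.50 (adjusted p = 0.0603), and 1 was lower, beside the same shares. That was TLR5, the flagellin receptor, at 2.93 to 4.89 (median 3.56) in prednisolone animals and 3.67 to 5.91 (median 4.73) in control animals, a difference of -1.22 (SE 0.348, adjusted p = 0.0816). It is a dim gene, with 6 of 8 prednisolone animals under a log2 intensity of 4, and with the floor of 16 the difference was -0.80. In the NF-kB list, 2 of 6 were lower at an unadjusted p under 0.05, beside 8.24% of all genes, the kinase complex members IKBKG at -0.23 and CHUK at -0.20.

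Prostaglandin and leukotriene genes differed in both directions. PTGS1, the constitutive cyclooxygenase, lay at 6.92 to 7.94 (median 7.27) in prednisolone animals and at 7.62 to 8.59 (median 8.02) in control animals, and differed by -0.74 (SE 0.174, adjusted p = 0.0556, and 0.0077 with the block). LTA4H, which makes leukotriene B4, differed by -0.34 (adjusted p = 0.0976). PTGER4, a receptor of prostaglandin E2, differed by 0.80 (SE 0.240, adjusted p = 0.0892), with 6 prednisolone animals above every control animal and 1 below all of them. Counted together, 2 of 13 eicosanoid and annexin genes were higher and 3 lower at an unadjusted p under 0.05, beside 13.5% and 8.24% of all genes, the others being ANXA2 at 0.47 and ANXA11 at -0.20.

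A few mitochondrial and ribosomal genes stood higher in prednisolone animals, beside 13.5% of all genes. Of 15 ATP synthase genes 4 were higher and none lower at an unadjusted p under 0.05, namely ATP5F1D, ATP5MG at 0.53 (SE 0.139, adjusted p = 0.0603), ATP5F1A at 0.30 and ATP5PF at 0.26. In complex I it was 4 of 37 genes, a smaller share than over all genes, led by NDUFC1 at 0.23 and NDUFA3 at 0.32. In complexes II and III it was 3 of 10, led by UQCRC1 at 0.30, and in complex IV 1 of 10, COX7C. The list medians were 0.101, 0.064, 0.035 and 0.128, beside 0.032 over all genes. Among 43 cytosolic ribosomal protein genes, 8 were higher and none lower at an unadjusted p under 0.05, a share to be set beside the 13.5% of all genes. RPL27 had the largest difference of these, at 0.92. Its log2 intensity of 8.92 to 10.59 was far below that of RPLP1, RPL9 and RPL31, which lay at 15.38 to 18.46. Which transcripts the RPL27 probes read was not tested. RPL9 differed by 0.38, RPL15 by 0.64, RPLP1 by 0.30 and RPL31 by 0.21, and the list's median was 0.083. Leaving out animals 28 and 32 gave 5 ribosomal genes, 2 of complex I and 2 of complexes II and III, while the ATP synthase and complex IV counts stayed at 4 and 1.

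Enzymes of lipid and sugar metabolism gave single genes. MECR, of mitochondrial fatty acid synthesis, lay at 9.52 to 10.15 (median 10.02) in prednisolone animals and at 8.55 to 9.58 (median 9.28) in control animals, a difference of 0.73 (SE 0.158, adjusted p = 0.0556). CYP51A1, a demethylase of cholesterol synthesis, lay at 7.83 to 8.38 (median 8.12) in prednisolone animals and at 7.00 to 7.86 (median 7.60) in control animals, and differed by 0.62 (SE 0.144, adjusted p = 0.0556). HADHA, of fatty acid oxidation, differed by 0.43, whereas ACADS of the same pathway differed by -0.36 and HADHB by -0.17. Of 10 genes of fatty acid oxidation and mitochondrial fatty acid synthesis, 3 were higher and 1 lower at an unadjusted p under 0.05. Those counts were 2 and 0 without animals 28 and 32. In glycolysis, 4 of 12 genes were higher at an unadjusted p under 0.05 and 1 was lower. Both lists stand beside 13.5% and 8.24% of all genes. The glycolysis counts without animals 28 and 32 were 2 and 1. LDHA, which makes lactate, differed by 0.47 and PGAM1 by 0.30, whereas HK1, the first enzyme of the pathway, differed by -0.35 (SE 0.095, adjusted p = 0.0722), with 7 prednisolone animals below every control animal. ENO1 differed by 0.26, and by -0.08 with quantile scaling over all features.

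Genes of protein synthesis, folding and breakdown follow. Of 21 proteasome genes 5 were higher and 1 lower at an unadjusted p under 0.05, beside 13.5% and 8.24% of all genes. PSMC2, an ATPase of the proteasome cap, lay at 13.21 to 13.56 (median 13.39) in prednisolone animals and at 13.0 to 13.21 (median 13.05) in control animals, a difference of 0.32 (SE 0.074, adjusted p = 0.0556, and 0.0048 with the block). PSMC1 of the same ring differed by 0.34. EIF4A2, an RNA helicase of translation initiation, lay at 14.53 to 15.06 (median 14.87) in prednisolone animals and at 15.01 to 15.44 (median 15.34) in control animals, and differed by -0.42 (SE 0.099, adjusted p = 0.0556). XBP1, a transcription factor of the unfolded protein response and of plasma cells, differed by 0.41 (adjusted p = 0.0770).

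Further genes with small p-values follow. Of 17 proliferation and chromatin genes tested, 1 was higher and 1 lower at an unadjusted p under 0.05, beside 13.5% and 8.24% of all genes. The list's median was -0.008, and without animals 28 and 32 the counts were 0 and 1. The higher one was the kinase AURKB, at 0.27. The lower one, HMGB2, is a chromatin protein of dividing cells. It lay at 13.17 to 14.16 (median 13.65) in prednisolone animals and at 14.12 to 14.73 (median 14.26) in control animals. The difference was -0.66 (SE 0.144, adjusted p = 0.0556), and with the mean of all its features -0.64 at an adjusted p of 0.0331, which passes. GAL, which encodes the neuropeptide galanin, differed by 0.64, and ENSA, an inhibitor of a mitotic phosphatase, by 0.41. RTN3 of the endoplasmic reticulum differed by -0.46, the pseudokinase gene TRIB2 by -0.59, the transporter SLCO3A1 by -0.62, the F-box gene FBXO4 by -0.38 and the phospholipase PLA1A by -0.91. These 7 had an adjusted p of 0.0556. The sialyltransferase ST3GAL2 differed by -0.67, but by 0.09 with the mean of all its features, so that its direction depends on the feature read. LOC523963 and LOC510081 differed by 1.27 and 0.51, and LOC510081 by 0.28 with quantile scaling over all features.

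Red cell genes were tested as a sign of other cells. Of 6 erythroid markers, 2 were lower at an unadjusted p under 0.05, beside 8.24% of all genes. They were the transcription factor NFE2 at -1.0 (SE 0.303, adjusted p = 0.0892) and the membrane protein EPB42 at -0.74. The count was 1 without animals 28 and 32. The list's summed intensity was 44780 to 272553 in prednisolone animals and 39962 to 341707 in control animals, and the haemoglobin gene HBB stood at -0.24. Of 3 mast cell and basophil genes, 2 were higher at an unadjusted p under 0.05, beside 13.5% of all genes. They were the histamine-making enzyme HDC at 0.34 and the tryptase TPSB2 at 0.48. With quantile scaling over all features these were 0.06 and 0.26. Their part in other results was not tested.

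The T1 difference was then set against the difference of the same animals at T2, in a fit over all 30 arrays that tested whether both were equal. They were unequal for 436 of 2402 genes (18.2%), 211 with the more positive difference at T1 (8.78%) and 225 with the more positive one at T2 (9.37%). Of the 121 named genes 54 were unequal, 48 of them with opposite signs at the samplings. Named genes were mostly chosen for a small p at T1, which favours large T1 differences, so these counts carry no weight of their own. Without animals 28 and 32 the total was 224. These counts come from a fit that did not pair the T1 and T2 arrays of an animal. With the animal as a block and all animals kept, 637 genes (26.5%) were unequal.

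IL15 differed by -1.11 at T1 and by 1.07 at T2 (adjusted p of the difference = 0.0007). At T2 its mean log2 intensity was 6.32 in prednisolone animals and 5.25 in control animals. UBE2D1 also had opposite signs, at -0.69 and 0.64 (adjusted p = 3.82e-05), as did TLR5, at -1.22 and 1.21 (adjusted p = 0.0011), and NFE2, at -1.0 and 1.17 (adjusted p = 0.0005).

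SPP1, CCL2, CD14 and CXCL5 had the opposite order of signs. At T2 all 6 prednisolone animals with an SPP1 value lay under a log2 intensity of 4, as did 2 of 6 control animals with a value. The size of its T2 difference is therefore uncertain. With every value raised to that floor SPP1 differed by 3.99 at T1 and by -1.14 at T2 (adjusted p = 0.0015). CCL2 was under the floor in 3 of 5 prednisolone animals at T2, and with the floor it differed by 2.80 at T1 and -3.25 at T2 (adjusted p = 0.0033). CD14 differed by 1.44 and -1.11 (adjusted p = 0.0008) and CXCL5 by 1.89 and -1.87 (adjusted p = 0.0091). CXCR4 differed by 0.88 and -0.58 (adjusted p = 0.0026), and PSMC2 by 0.32 and -0.32 (adjusted p = 2.63e-05).

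Some T2 differences were close to 0 where the T1 difference was not. RPL27 differed by 0.92 at T1 and by -0.04 at T2 (adjusted p = 0.0015), PPARG by 1.52 and -0.01 (adjusted p = 0.0132) and ARNT by -0.75 and -0.16 (adjusted p = 0.0155). For others again the differences at T1 and T2 were not shown to be unequal. CYP51A1 differed by 0.62 at T1 and 0.65 at T2 (adjusted p = 0.9447), TRIB2 by -0.59 and -0.53 (adjusted p = 0.8757), AMY2B by -0.44 and -0.34 (adjusted p = 0.6496) and CEBPD by 0.60 and 0.78 (adjusted p = 0.7470).

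**Figure D5:**
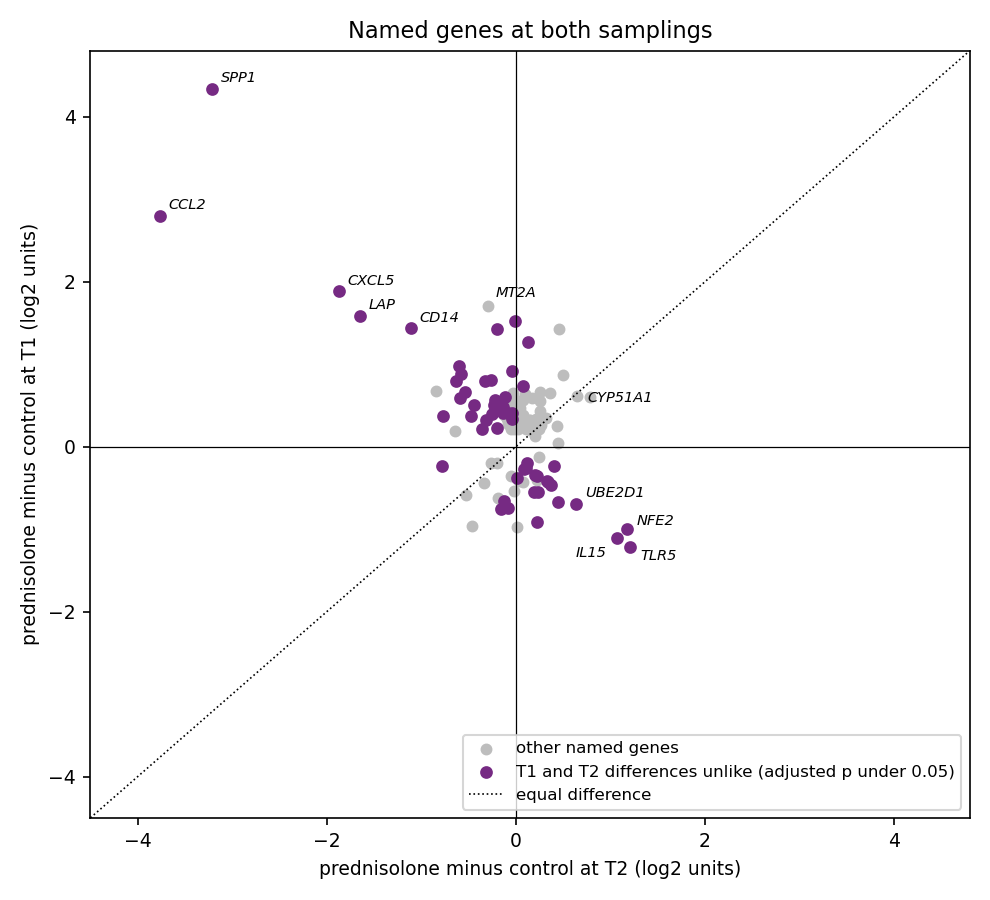
Difference between prednisolone and control animals of the 121 named genes at T1 (vertical axis) and at T2 (horizontal axis), in log2 units, with the intensities as measured, dim ones included. The 54 genes in purple had unequal differences, and SPP1, CCL2, CXCL5 and CD14 lie at the upper left, with IL15, TLR5 and NFE2 at the lower right, away from the dotted line of equal differences.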

How the data were processed

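The authors deposited 1 table of processed linear intensities, with 1.62 to 1067622 as the range. Per the labels and the series text, arrays of 1 colour were scanned at a pair of sensitivities and read with Feature Extraction 9.5, with R 2.11.1 listed in the submitters' processing notes. How arrays were normalized to each other, and why 17.16% of cells are null, is not given in these sources. Arrays were scaled to the 75th percentile of 23055 complete features, raised to a floor of 2.511 and logged (log2). Of 44407 features 6954 had 1 gene, 37453 none and none several. Symbols were updated through RefSeq (5432 by accession, 1358 by current symbol, 158 by synonym), and 6 kept the platform's name. A gene is the mean of its features within 0.25 log2 units of the brightest. Of 3098 genes with 2 features, 524 had features further apart, so only the brighter counts there. Genes in the lowest 25% by intensity or with fewer than 4 values in a group were left out, and 176 tested genes lack a value on some T1 array.

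limma 3.58.1 in R 4.3.3 was fitted over the T1 arrays, two-sided, adjusted over all 2402 genes, with calls at 0.05, and checked on simulated data. Differences are prednisolone minus control in log2 units. Animal numbers in the labels link T1 and T2, and the T1 and T2 deviations of 1 animal from its groups' means had a correlation of 0.219 to 0.698 (median 0.465), so the block is a named alternative (duplicateCorrelation 0.26). Python 3.11.15, pandas 2.3.3, numpy 2.4.6 and matplotlib 3.10.9 made tables and plots. Named genes are the calls, the smallest p-values up to 14 a direction, up to 4 list members with p under 0.05, and fixed glucocorticoid and lineage genes. Members and lists were chosen with earlier results of these data known.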

Additional observations from a re-analysis of the deposited data

Results flagged for a closer look

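An animal lay far from the rest of its group in 16 of 242 group and gene pairs. The rule flags about 1 in 20 by chance in unselected genes. These genes were mostly chosen for a small p at T1 and share the same animals, so that rate cannot be set against the count. Among prednisolone animals at T1 these were NR3C1 in animal 28 (log2 intensity 12.61), BOLA-DYB in animal 28 (6.30), IFNG in animal 29 (7.74), HSPA8 in animal 30 (15.29) and UQCR11 in animal 32 (12.16). Among control animals they were ITGB1 (12.52) and LAP (4.78) in animal 17, XBP1 (13.89) and S1PR1 (8.42) in animal 18, PSMB5 (9.76), CHUK (13.12) and PECAM1 (9.71) in animal 22, HMGB2 (14.73), ANXA11 (13.16) and CD3D (10.80) in animal 23 and LOC510081 (6.97) in animal 24.

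For 54 named genes the difference at T1 was unlike that at T2 by the test of the difference itself (limma, adjusted p under 0.05). The values that follow are the T1 difference minus the T2 difference in log2 units. For a first group of genes it was 7.55 for SPP1, 6.57 for CCL2, 3.76 for CXCL5, 3.24 for LAP, 2.55 for CD14, 1.63 for IL1RN, 1.58 for TIMP1, 1.53 for PPARG, 1.43 for CD86, 1.20 for HMOX1, 1.13 for PLIN2 and 0.61 for TPSB2. The values of SPP1 and CCL2 rest on dim T2 intensities, and with a floor of 16 they were 5.13 and 6.06. That of TLR5, given next, was then -1.92. For LAP it was then 1.76, at an adjusted p of 0.1390 (limma), so that LAP no longer passed. No LAP value of the main fit lay under that floor in any group, and why its difference changed was not tested.

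Among genes of cytokine, adhesion and immune signalling it was -2.43 for TLR5, -2.19 for IL15, 1.47 for CXCR4, 1.18 for USP18, 1.13 for PTGER4, 1.07 for IL12RB2, 0.93 for TIRAP, 0.84 for S1PR1, -0.78 for PECAM1, 0.71 for IL2RG, -0.67 for PTGS1, -0.64 for IKBKG, 0.55 for STAT3, -0.54 for LTA4H, -0.37 for PTPRC, -0.37 for ITGB1 and -0.33 for ANXA11.

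Among genes of protein turnover, translation and metabolism it was -1.33 for UBE2D1, 0.96 for RPL27, -0.78 for GCLM, -0.75 for PRDX6, -0.75 for EIF4A2, 0.66 for MECR, 0.65 for PSMB5, 0.64 for PSMC2, 0.58 for EIF4E, -0.57 for HK1, 0.55 for EIF4A1, 0.49 for XBP1, 0.42 for NDUFC1, -0.39 for FBXO4 and 0.38 for PSMC1. For the remaining genes it was -2.17 for NFE2, 1.15 for LOC523963, -1.13 for PLA1A, -1.11 for ST3GAL2, -0.83 for RTN3, 0.80 for LOC513690, 0.74 for LOC510081, -0.59 for ARNT, -0.52 for HMGB2 and 0.45 for ENSA.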

How the results depend on the processing

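Against 8 genes called at T1 (3 higher, 5 lower), the count was 37 with quantile scaling over complete features (20 higher, 17 lower), 108 with quantile scaling over all features (14 higher, 94 lower), 2 without the filter on dim genes, 41 with the lowest 40% left out, 5 for genes complete on all 30 arrays, 5 with the brightest feature alone, 72 with array weights, 17 with an intensity trend and robust spread and 0 without animals 28 and 32. Over all 30 arrays it was 246 with no replicate block and 232 with the animal as a replicate block. Leaving out 1 animal gave 0 to 109. The counts were 7 with intensities as deposited, 6 with a floor of 16 and 9 with the mean of all features. Quantile scaling over all features moved the median difference of all genes to -0.089, against 0.032, and the cause was not tested. For the unequal T1 and T2 differences, 436 genes, the count was 637 with the animal as a replicate block, 616 by each animal's own differences, 368 with quantile scaling over complete features, 438 with a floor of 16 (chosen after seeing the data) and 224 without animals 28 and 32. NFKBIA, ENO1, ZBTB16, CD3D and ST3GAL2 changed sign under some setting, though none was called. Dim genes and the number of arrays limit what could be called.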
